A study of Homo sapiens with 18 samples.

Results

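The genes described here are the clustered histone genes, which the files list under symbols beginning HIST1H, HIST2H, HIST3H or HIST4H. A gene was kept in a cell line when its mean over the 6 columns of that line was at least 1 TPM (a share of transcripts, corrected for transcript length, that sums to 1000000 in each column). This kept 55 of 74 listed histone genes in RKO, 64 of 71 in COLO 201 and 63 of 71 in H1975, or 67 distinct genes, of which 54 were kept in every line. The kept gene with the lowest mean was HIST2H2BC in RKO at 2.06 TPM, HIST1H1T in COLO 201 at 1.86 TPM and HIST2H2AA3 in H1975 at 1.91 TPM. The first gene left out stood at 0.542 TPM in RKO (HIST1H2BE), 0.656 TPM in COLO 201 (HIST1H2AD) and 0.373 TPM in H1975 (HIST2H3C).

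The lines are RKO and COLO 201, from colon cancers, and H1975, from a lung cancer. Each carried a puromycin-selected, tetracycline-inducible short hairpin RNA against MUC1 (tet-MUC1shRNA), which encodes a membrane mucin. In each line, 3 cultures received 500 ng/ml doxycycline, which switches the hairpin on, and 3 received 0.1% DMSO as vehicle. RKO was grown in EMEM and the other lines in RPMI1640, all with 10% serum, and the length of treatment is not given in the sources used here. Both arms of every comparison carry the hairpin construct. No culture with a control hairpin and doxycycline was analysed here, so what the hairpin did and what doxycycline did by itself cannot be told apart. Nothing in the labels says whether the hairpin lines are single clones.

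Histones package DNA. A pair each of H2A, H2B, H3 and H4 forms the nucleosome core, and linker histone H1 binds where DNA enters and leaves it. Most of the genes named here are switched on in S phase, when new chromatin is assembled, through the coactivator NPAT at the histone locus body. Their messages usually end in a conserved stem-loop instead of a poly(A) tail, are cut by a U7 snRNP complex and are bound by SLBP. In dividing cells, tumour cells included, their level therefore follows DNA replication.

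The stem-loop is shown because the labelled library kit selects poly(A) RNA, which such messages lack. A stem of 6 bases and a loop of 4 bases was found after the stop codon in the GENCODE 29 transcripts of 30 of the 67 genes, starting 23 to 68 bases after the stop (median 36.5). Of the 37 others, 32 have less than 30 bases of annotated 3′ UTR, so the search window was missing for most of them. The letters below are in the transcript's direction, 5′ to 3′, with the stem in capitals and the loop in lower case.
HIST1H2BH, HIST3H2BB, HIST3H2A, HIST2H2BE and 13 others: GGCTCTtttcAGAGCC
HIST1H4B, HIST1H4E, HIST4H4, HIST1H4H and HIST1H4J: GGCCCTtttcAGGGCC
HIST1H2BC, HIST1H2BD, HIST1H2BF and HIST1H3G: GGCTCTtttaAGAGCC
HIST2H4A, HIST2H4B and HIST1H4I: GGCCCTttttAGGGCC
HIST1H2AG: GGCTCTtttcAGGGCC

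Every H4 gene with a stem-loop had the first arm GGCCCT, and every such H2A, H2B and H3 gene had GGCTCT. The promoters also differed by type. RefSeq promoters on GRCh38.p14, from 250 bases before the start site to 50 after it, were found for 61 of the 67 genes and were searched on both strands. The octamer ATTTGCAT, known as a binding site of the factor encoded by POU2F1, was present in 13 of 17 H2B and 9 of 14 H2A promoters and in none of the H1, H3 and H4 promoters, against 1.77% of all 35116 promoters. TATAAA was found in 41 of 61 (67.2%) against 11.5% of all promoters. CCAAT was found in 52 of 61 (85.2%) against 34.6%, and the gap lay in H4, where 3 of 12 had it. The octamer is shown for 4 H2B genes that recur below, each as 28 bases in the direction of the gene with the octamer in capitals.
HIST1H2BH, chr6:26251555-26251582, plus strand: ttaagcacctATTTGCATaaaagaccta
HIST1H2BM, chr6:27814964-27814991, plus strand: tctactcctaATTTGCATaataacattt
HIST1H2BK, chr6:27146887-27146914, minus strand: tcttcaccttATTTGCATgagaggtcct
HIST2H2BE, chr1:149886711-149886738, minus strand: cggagccctaATTTGCATaaggtggtta

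These letters are a description of the reference, and no binding was measured. The promoters of the neighbours HIST3H2A and HIST3H2BB held neither the octamer nor TATAAA in this window. Several genes share sequence with near-copies or with overlapping annotated genes. For each gene the share of its 50-base windows found in no other annotated transcript was computed. All windows were unique in 26 genes and fewer than 50% in 15 genes, among them HIST2H4A, HIST2H4B, HIST2H2AA3, HIST2H2AA4, HIST2H3A, HIST2H3C, HIST2H3D, HIST2H3PS2, HIST1H3D and HIST1H2BK. Values of those single genes are uncertain, because reads could be split between the genes that share them, and 16 genes also overlap another annotated gene.

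Before the results, the arms and columns were checked. Every sample record carries the same agent label, so the arm was read from the column headings. Headings with the word plus after DOX were taken as doxycycline and those without it as vehicle, though no heading names the vehicle, and every direction given here rests on that reading. MUC1, the target of the hairpin, was lower in the columns so taken as doxycycline in each line. Its level was known when the headings were read, so it is not an independent check of the arms. Its level was 15.2, 1.24 and 1.03 TPM with vehicle and 0.108, 0.105 and 0.204 TPM with doxycycline in RKO, and the doxycycline mean was 12.8% of vehicle in COLO 201 and 8.22% in H1975. Without RKO vehicle column 1, MUC1 had a mean under 1 TPM and was not tested. Vehicle column 1 of RKO stood apart. Its fibroblast and endothelial marker genes summed to 182.8 TPM against at most 0.02 TPM in the other 5 columns, with COL1A2, COL1A1 and COL3A1 the highest. It also alone held 5 histone genes given below, so the RKO totals, group sums and counts of calls are given with and without it. Small noncoding RNAs made up 67.8% to 78.7% of all TPM in RKO, with means of 70.4% in vehicle and 75.2% in doxycycline columns. In the other lines they were under 0.01%, while mitochondrially encoded genes held 16.1% to 23.0%. Colon markers summed to at most 2.96 TPM in RKO. In COLO 201 they summed to 183.4 to 189.7 TPM with vehicle and 117.5 to 119.9 TPM with doxycycline, and all 3 tested fell (median -1.25). Lung markers in H1975 summed to 26.9 to 30.7 TPM and to 16.2 to 19.05 TPM, and both tested fell (median -0.87). In COLO 201 the leukocyte and erythroid markers, nearly all LYZ, summed to 1223 to 1227 TPM with vehicle and 593 to 625 TPM with doxycycline. In H1975 the fibroblast and endothelial markers summed to 45.1 to 47.3 TPM and to 17.2 to 20.9 TPM. Their part in the results below was not tested. TPM keep no read depth, so the depth behind each value is unknown. The p-values rest on the spread between these cultures, and limma draws each gene's spread toward that of genes at a like level. Its SE and p-values are thus not a gene's own spread alone. In RKO the limma adjusted p of HIST1H2AB was 1.8e-07 with vehicle column 1 and 2.5e-25 without it.

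In RKO nearly every histone gene was lower with doxycycline. Together the 55 genes summed to 14917, 21108 and 19972 TPM in the vehicle columns and to 4962, 7915 and 5798 TPM in the doxycycline columns, so every doxycycline column lay below every vehicle column. The means were 18666 ± 3296 and 6225 ± 1522 TPM (SD, n = 3), and the doxycycline mean was 33.3% of vehicle (two-sided exact permutation p = 0.1, the smallest that 3 against 3 can give). By limma on log2(TPM + 1), at an adjusted p under 0.05 over all 10551 genes tested, 49 of the 55 fell, none rose and 6 did not pass. At an unadjusted p under 0.05 the counts were 53 lower and 0 higher. Of all genes tested in RKO, 16.1% were called lower and 2.09% higher. The median log2 change was -1.61 for the histone genes and -0.26 for all genes. In 48 of the 49 the arms did not overlap, which held downward for 32.4% and upward for 3.90% of all genes. Without vehicle column 1, 48 of the 50 genes then tested fell, 47 of them among the 49, with a median of -1.71. Of all genes, 18.2% were then called lower. After rescaling the columns to a common median ratio, which brought the median of all genes near 0, 46 of the 49 remained lower, none was higher and the median was -1.31. Of all genes, 14% were lower and 13.8% higher after this rescaling. With no minimum TPM, 2 of the 49 calls remained and 47 were lost, while the median over the 62 histone genes then tested was -1.55. That setting tested 18329 genes and called 0.0873% of them lower.

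**Figure D1:**
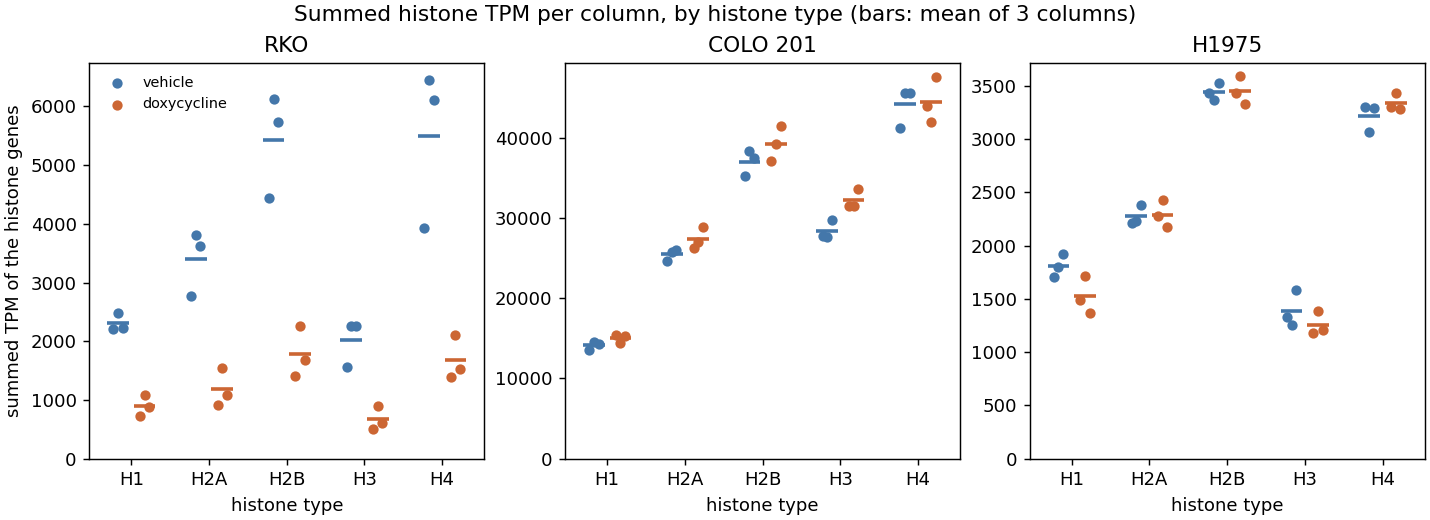
Summed TPM of the histone genes of each type (x axis) in each column of RKO, COLO 201 and H1975 (y axes, linear from 0 and scaled separately per line), with points for columns and bars for the mean of 3. The RKO doxycycline columns sit below all RKO vehicle columns for each of the 5 types, while the arms of the other lines lie close together.

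The sum of each of the 5 types was lower in RKO. The linker histone H1 genes summed to 38.9% of vehicle (3 of 4 genes lower), H2A to 34.9% (12 of 13), H2B to 32.9% (15 of 17), H3 to 33.2% (9 of 11) and H4 to 30.5% (10 of 10). The clusters gave 33.3% for HIST1 on chromosome 6 (42 of 46 lower), 35.3% for HIST2 on chromosome 1 (5 of 6), 32.9% for the HIST3 pair on chromosome 1 (1 of 2) and 28.6% for HIST4H4 on chromosome 12. Without vehicle column 1 the sums of the 5 types were 38.1%, 31.9%, 30.2%, 29.8% and 26.7% of vehicle, in the same order, with 3 of 3, 11 of 12, 15 of 16, 9 of 9 and 10 of 10 tested genes lower. The HIST1, HIST2 and HIST4 sums were then 30.003%, 34.7% and 29.4%. The HIST3 value rested on that column: its vehicle sums were 160.1, 57.9 and 51.1 TPM and its doxycycline sums 23.2, 33.6 and 31.6 TPM, and without vehicle column 1 the share was 54.1% (1 of 2 lower). Of the 47 genes called and still tested without that column, all 47 remained lower, 42 of them by more, and the log2 change moved by -0.40 to 0.51 (median -0.16). All histone genes together summed to 0.496% to 2.11% of all TPM in RKO. In bulk samples, fewer cells in S phase and less histone RNA per cell cannot be told apart.

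The H4 genes held the highest single levels. HIST1H4E (H4C5, chr6:26204552-26206038, plus strand) stood at 1035, 1737 and 1608 TPM with vehicle and at 475, 701 and 514 TPM with doxycycline, a log2 change of -1.36 ± 0.22 (SE; adjusted p = 8.6e-05). HIST1H4B (H4C2, chr6:26026815-26027252, minus strand) went from 997, 1473 and 1322 to 261, 394 and 291 TPM (-2.003 ± 0.22). Values written this way are the vehicle columns 1 to 3, then the doxycycline columns 1 to 3, and the log2 change ± SE in brackets. Neither gene's arms overlapped, and all 10 H4 genes, almost all of which encode the same protein, fell. HIST1H4D (H4C4, chr6:26188765-26189076, minus strand) had the largest H4 fall, from 238, 415 and 443 to 61.8, 105 and 73.8 TPM (-2.15 ± 0.26, adjusted p = 1.7e-06). HIST4H4 (H4C16, chr12:14767999-14771131, minus strand), which stands alone outside the clusters, went from 167, 159 and 150.4 to 38.5, 54.2 and 43.6 TPM (-1.80 ± 0.23). Its 3 vehicle values differed by little, and the change was -1.76 without vehicle column 1.

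Among H3 genes, whose products pair with H4, HIST1H3B (H3C2, chr6:26031650-26032060, minus strand) fell from 435, 708 and 681 to 131, 227 and 149 TPM (-1.85 ± 0.24) and HIST1H3F from 302, 501 and 500.1 to 128, 229 and 144 TPM (-1.38 ± 0.25). In both, vehicle column 1 was the lowest vehicle value and doxycycline column 2 the highest doxycycline value. That order was general: vehicle column 1 was lowest of its arm in 44 of 55 histone genes and doxycycline column 2 highest of its arm in 51 of 55. HIST1H3J (H3C12, chr6:27890382-27893106, minus strand) broke it, with 65.6, 45.6 and 48.8 TPM in vehicle and 7.57, 17.3 and 9.31 TPM in doxycycline columns (-2.19 ± 0.25; -2.04 without vehicle column 1). HIST1H3E stood at 6.06, 13.6 and 13.4 TPM with vehicle and 6.82, 7.39 and 6.72 TPM with doxycycline, and its arms overlapped (adjusted p = 0.098).

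The dimer partners H2A and H2B held the largest and the smallest fall called in RKO. The largest was that of HIST1H2AB (H2AC4, chr6:26033176-26033568, minus strand), which went from 80.6, 116 and 111 to 13.7, 23.4 and 15.1 TPM, a log2 change of -2.51 ± 0.24 (adjusted p = 1.8e-07), and -2.68 without vehicle column 1. HIST1H2BM (H2BC14, chr6:27815044-27815424, plus strand) went from 115, 193 and 163 to 26.2, 42.4 and 35.1 TPM (-2.14 ± 0.24). HIST1H2BH (H2BC9, chr6:26251651-26253710, plus strand), one of the most abundant H2B genes, went from 560.0, 853 and 756 to 139.6, 216 and 162 TPM (-2.06 ± 0.23). In each, every doxycycline column lay below every vehicle column. HIST1H2BC fell from 579.8, 784 and 756 to 175, 291 and 218 TPM (-1.65 ± 0.23), HIST1H2AG from 401, 661 and 679 to 164, 283 and 202 TPM (-1.42 ± 0.24) and HIST1H2AE from 414, 656 and 595 to 137, 236 and 165 TPM (-1.63 ± 0.24). HIST1H2BK (H2BC12, chr6:27146418-27146798, minus strand) had the smallest, from 307, 487 and 473 to 174, 268 and 201 TPM (-0.97 ± 0.24, adjusted p = 0.0048).

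Of the linker genes, HIST1H1E went from 963, 1269 and 1145 to 382, 572 and 466 TPM (-1.26 ± 0.21) and HIST1H1C from 728, 834 and 731 to 255, 368 and 307 TPM (-1.31 ± 0.21). HIST1H1D (H1-3, chr6:26234268-26234933, minus strand) went from 297, 373 and 350.2 to 90.4, 141 and 108 TPM (-1.60 ± 0.23, adjusted p = 1.8e-05). HIST1H1C and 6 other genes known to give polyadenylated transcripts as well (HIST1H2AC, HIST1H2BC, HIST1H2BD, HIST1H2BK, HIST2H2BE, HIST4H4) all fell, with a median of -1.31 against -1.65 for the other 48. Genes with the stem-loop shown above had a median of -1.48, and those with none found in their annotated transcripts -1.71. The 5 genes held by vehicle column 1 alone, given next, are among the other 48 and among those with no stem-loop found. Neither pair of medians was recomputed without them. Whether the library method bears on any of these values was not tested.

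Vehicle column 1 decided a few genes. HIST1H1B read 223, 0 and 0 TPM in the vehicle columns and 0 in every doxycycline column, and HIST1H3I 58.6, 0 and 0 TPM and 0. HIST1H3C read 80.02, 0.129 and 0.362 TPM with vehicle and 0.0676, 0.0934 and 0 TPM with doxycycline, HIST1H2BB 66.3, 0 and 0.304 TPM with vehicle and 0, 0.209 and 0.238 TPM with doxycycline, and HIST1H2AL 36.4, 0.371 and 0.522 TPM with vehicle and 0.130, 0.0897 and 0 TPM with doxycycline. These 5 genes were under 1 TPM in every RKO column other than vehicle column 1, so the calls of HIST1H3C and HIST1H2AL rest on that column. Without the 5, 47 of 50 fell with a median of -1.58. The HIST3 genes were also high in that column. HIST3H2BB (H2BC26, chr1:228458107-228460470, plus strand) read 105, 37.1 and 34.3 TPM with vehicle and 7.99, 11.6 and 10.6 TPM with doxycycline, a log2 change of -2.25 ± 0.28, and -1.74 without vehicle column 1. Its neighbour HIST3H2A (H2AC25, chr1:228456979-228457873, minus strand) read 55.1, 20.8 and 16.8 TPM with vehicle and 15.2, 22.03 and 21.04 TPM with doxycycline (-0.47 ± 0.29, adjusted p = 0.25). Without vehicle column 1 the HIST3H2A change was 0.04, and with the other columns rescaled as well it was 0.34 (adjusted p = 0.0014), the one RKO histone gene called higher under any setting tried. HIST2H2BC, at 1.55 to 2.90 TPM, also did not pass (-0.10).

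**Figure D2:**
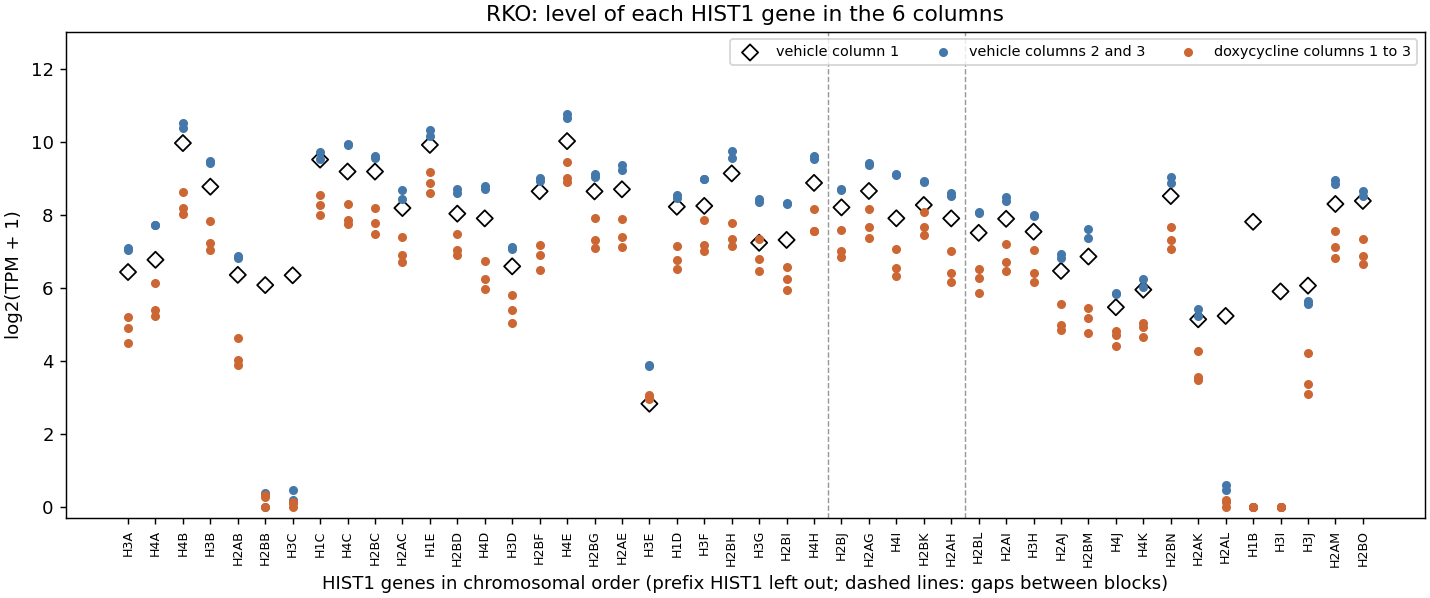
Level of each HIST1 gene (y axis, log2(TPM + 1)) in the 6 RKO columns, with the genes in chromosomal order along the x axis and dashed lines at the gaps between blocks. Doxycycline columns lie below the vehicle columns in 41 of the 46 genes, and the arms of HIST1H3G and HIST1H3E are among those that overlap. Vehicle column 1 (open diamonds) alone is raised at HIST1H1B, HIST1H3C, HIST1H2BB, HIST1H2AL and HIST1H3I.

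The falls in RKO ran through each block of genes. On chromosome 6, 24 of 26 genes fell between 26017085 and 26285638, 5 of 5 between 27125897 and 27147515 and 13 of 15 between 27807444 and 27893843, with medians of -1.64, -1.42 and -1.57. Without vehicle column 1 these counts were 24 of 24, 5 of 5 and 12 of 12. The chromosome 1 block from 149782689 to 149887916 had 5 of 6 lower, with HIST2H3D from 102, 149 and 152 to 26.8, 40.4 and 33.2 TPM (-1.97 ± 0.24) and HIST2H2AC from 449, 386 and 371 to 139, 224 and 159.9 TPM (-1.23 ± 0.23). The 11 genes with under 80% of windows unique were all lower, as were 38 of the other 44.

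COLO 201 gave small changes in both directions. Its 64 histone genes held 14.2% to 16.7% of all TPM, and they summed to 142421, 151635 and 152984 TPM with vehicle and to 154109, 153909 and 166834 TPM with doxycycline. The lowest doxycycline column lay just above the highest vehicle column, and the doxycycline mean was 106.2% of vehicle (exact permutation p = 0.1). The direction of this sum turned with the scaling, from a log2 change of 0.087 as deposited to -0.046 after rescaling the columns to a common median ratio. At the same threshold 9 genes fell, 28 rose and 27 did not pass, where 15.0% of all 11566 genes were called lower and 45.9% higher. The share of histone genes that rose was thus near the share of all genes, and the medians were 0.10 and 0.12. After that rescaling 12 of the 64 were lower and 7 higher, with a median of -0.03, where 29.7% of all genes were lower and 27.3% higher, so most of the 28 calls turned on the scaling. The 9 lower genes were all still called, as were 7 higher ones: HIST2H3D, HIST2H3PS2, HIST3H2A, HIST3H2BB, HIST1H2BM, HIST1H2BO and HIST1H3G.

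Of those that rose under both scalings, HIST2H3D (H3C13, chr1:149813271-149813681, minus strand) went from 863, 919.8 and 988 to 1318, 1232 and 1388 TPM (0.51 ± 0.06, adjusted p = 1.1e-05). All 4 HIST2 genes for H3 rose, to a sum of 141.8% of vehicle, though all share most of their sequence with other annotated genes, and HIST2H3D and HIST2H3PS2 were the ones still called after rescaling. HIST2H3PS2 went from 8.38, 13.6 and 13.04 to 21.8, 13.7 and 18.6 TPM (0.59 ± 0.16), and none of its 50-base windows was unique. The HIST3 pair rose together. HIST3H2A went from 159, 191 and 165 to 218, 224 and 236 TPM (0.40 ± 0.06) and HIST3H2BB from 618, 715 and 639 to 804, 823 and 881 TPM (0.35 ± 0.06), with no overlap between arms. HIST1H2BM rose from 1371, 1501 and 1410.5 to 1651, 1843 and 1896 TPM (0.33 ± 0.06).

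Of the genes that fell in COLO 201, HIST1H1D had the most secure call, from 1262, 1319 and 1292 to 989, 959.8 and 978 TPM (-0.40 ± 0.04, adjusted p = 3.7e-06). HIST1H1T (H1-6, chr6:26107419-26108136, minus strand), a linker histone known from the testis, read 2.63, 2.37 and 2.13 TPM with vehicle and 1.53, 1.22 and 1.26 TPM with doxycycline (-0.53 ± 0.09). HIST1H2BH, among the most abundant H2B genes here too, fell from 8196, 8429 and 8480.3 to 6639.9, 7366 and 7671 TPM (-0.21 ± 0.06). HIST1H3A went from 1384, 1440.2 and 1552 to 1196, 1245 and 1304 TPM (-0.22), HIST1H3E from 134, 152 and 161 to 132, 119 and 131 TPM (-0.23) and HIST1H4L from 4653, 5065 and 5062 to 3972, 4249 and 4552 TPM (-0.21). HIST1H2AK fell from 624, 638 and 712 to 565, 556 and 597 TPM (-0.20). The doxycycline columns of each lay below its vehicle columns.

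By type, COLO 201 had 2 lower and 2 higher of 5 H1 genes, 1 and 5 of 15 H2A, 1 and 8 of 17 H2B, 2 and 9 of 14 H3 and 3 and 4 of 13 H4. Of all genes tested in this line, 15.0% were called lower and 45.9% higher. The most abundant H4 gene, HIST1H4B, read 11103, 12700.3 and 12404 TPM with vehicle and 13049.7, 11711 and 13699 TPM with doxycycline and did not pass (0.09 ± 0.08). HIST1H3B rose from 6670.1, 6437 and 6942 to 8104, 7873 and 8400.3 TPM (0.28) and HIST1H2BG from 5296, 5759 and 5727 to 6095, 6371 and 6827 TPM (0.20), calls that were lost on rescaling. HIST1H1C rose from 4439, 4785 and 4701 to 5355, 4867 and 5198 TPM (0.15, likewise lost), and HIST4H4 at 969.8, 1103 and 1078 TPM with vehicle and 1103, 1048 and 1227 TPM with doxycycline did not pass. Among the genes with under 80% unique windows 13 of 18 rose and none fell, against 15 and 9 of the other 46. Of these 13 rises, just those of HIST2H3D and HIST2H3PS2 were still called after rescaling, so this split turned on the scaling too.

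**Figure D3:**
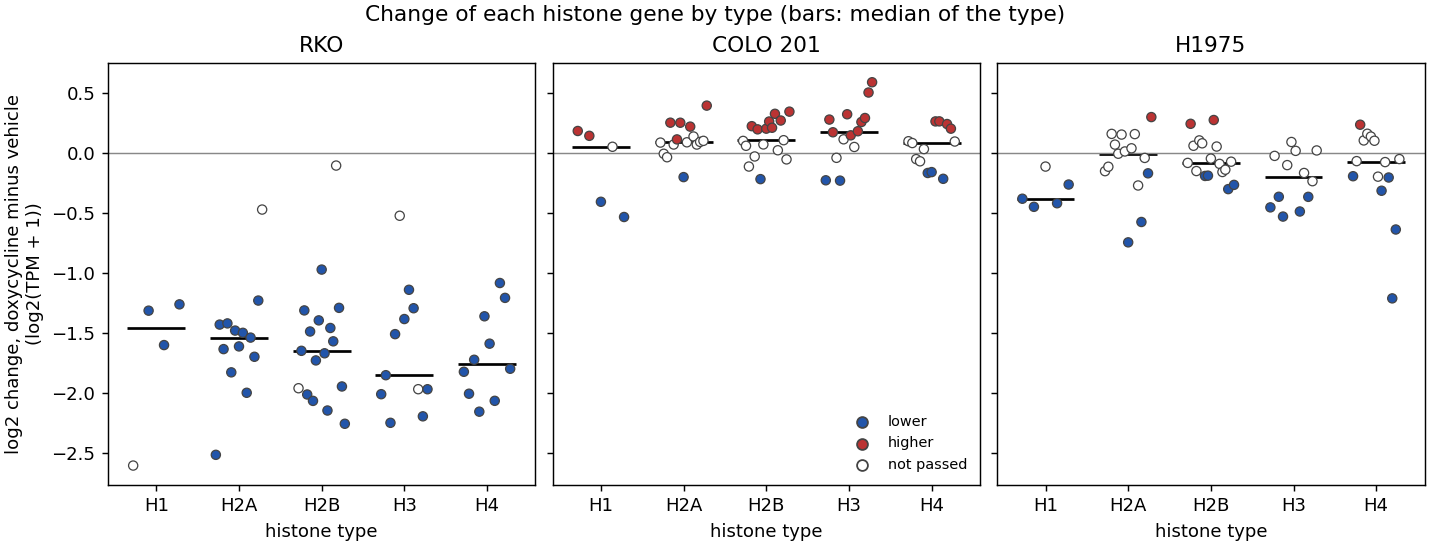
Log2 change of each histone gene (y axis, doxycycline minus vehicle on the log2(TPM + 1) scale) by type (x axis) in the 3 lines, with blue points for genes called lower, red for higher and open for not passed, and bars at the median of each type. The quartiles of the RKO changes are -1.97 and -1.37, and the medians of COLO 201 and H1975 are 0.10 and -0.10.

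In H1975 some histone genes moved, mostly down, and the difference in the total was within the spread between columns. The 63 genes summed to 11990.4, 11726 and 12713 TPM with vehicle and to 11685, 12555 and 11360.0 TPM with doxycycline, 97.7% of vehicle, with overlapping arms (exact permutation p = 0.5). They were 1.14% to 1.27% of all TPM. Here 21 genes fell, 4 rose and 38 did not pass, where 14.6% of all 12359 genes were called lower and 23.9% higher. The median was -0.10 against 0.06 for all genes, and rescaling gave 24 lower and 3 higher, where 18.5% and 21.2% of all genes were called. Without vehicle column 1 the number lower was 13, where 11.8% of all genes were called lower.

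The genes that fell were of every type. Of 5 H1 genes 4 fell, to a sum of 84.2% of vehicle (exact permutation p = 0.2). HIST1H1B went from 243, 259.6 and 282 to 182, 224 and 172 TPM (-0.45 ± 0.09) and HIST1H1D from 258, 279 and 288 to 205, 217 and 195 TPM (-0.42 ± 0.07, adjusted p = 0.00036). HIST1H1A, at 58.99, 55.9 and 63.5 TPM with vehicle and 40.9, 52.3 and 44.04 TPM with doxycycline, was kept in this line only and fell (-0.38). Of 12 H3 genes 5 fell and none rose by limma (6 and 0 at an unadjusted p under 0.05), among them HIST1H3D from 33.00, 31.9 and 40.6 to 20.9, 29.8 and 22.1 TPM (-0.53 ± 0.12), HIST1H3H from 76.6, 72.9 and 87.1 to 56.7, 64.3 and 48.00 TPM (-0.48 ± 0.10) and HIST1H3A from 88.8, 80.5 and 99.9 to 63.1, 72.1 and 60.8 TPM (-0.45 ± 0.09). The arms of all 3 were separate, though all windows of HIST1H3D are shared with AL031777.3, an annotated gene that overlaps it on the same strand.

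The largest falls in H1975 were in low genes of the HIST2 cluster and in HIST1H2AK. HIST2H4A (H4C14, chr1:149832659-149839767, plus strand) read 12.2, 12.5 and 8.54 TPM with vehicle and 4.30, 3.72 and 4.53 TPM with doxycycline (-1.21 ± 0.12, adjusted p = 5.4e-06). Its copy HIST2H4B read 11.2, 10.8 and 7.94 TPM with vehicle and 4.93, 5.82 and 7.55 TPM with doxycycline (-0.63 ± 0.13). Since 2.46% of the windows of HIST2H4A are unique, the sum of both is the safer value, and it was 48.7% of vehicle. HIST2H2AA4, also a copy, read 6.05, 8.50 and 5.77 TPM with vehicle and 5.35, 4.01 and 3.34 TPM with doxycycline (-0.57 ± 0.14). HIST1H2AK went from 30.4, 35.2 and 33.1 to 15.7, 27.1 and 16.7 TPM (-0.74 ± 0.15). Of the more abundant genes, HIST1H2BH fell from 496, 470.1 and 504 to 447, 444 and 400.2 TPM (-0.19) and HIST2H2AC from 540.4, 559 and 571 to 498, 514 and 477 TPM (-0.17).

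Just 4 genes rose in H1975. HIST1H2BK went from 409, 389 and 414 to 490.0, 499.9 and 481 TPM (0.28 ± 0.06), HIST1H2BC from 253, 259 and 259.9 to 300.3, 315 and 302 TPM (0.25 ± 0.06) and HIST1H4C from 616, 534 and 610.0 to 699, 702 and 673 TPM (0.24 ± 0.07). HIST1H2BK and HIST1H2BC are on the list of genes with known polyadenylated transcripts, of which 1 fell and 2 rose here. HIST3H2A went from 28.3, 33.2 and 33.8 to 36.2, 42.98 and 39.1 TPM (0.30 ± 0.09, adjusted p = 0.013; 0.081 without vehicle column 1). HIST1H4F, at 651 to 769 TPM, was among the highest H4 genes of this line and was listed at 0 in every column of both others. It did not pass (0.14).

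The HIST3 pair lies head to head, with 234 bases between the start sites, and it parted in H1975. HIST3H2BB read 50.6, 53.6 and 56.6 TPM with vehicle and 39.1, 50.4 and 44.6 TPM with doxycycline (-0.26 ± 0.09, adjusted p = 0.029), while HIST3H2A rose. The HIST3H2BB call was lost without vehicle column 1 or 3 or doxycycline column 1. In RKO too HIST3H2BB fell and HIST3H2A did not pass, and in COLO 201 both rose. The difference between these neighbours was not itself tested. Among the 8 other head-to-head H2A and H2B pairs that were measured in all lines, with 219 to 331 bases between starts, both genes fell in RKO in each, so the HIST3 pair was the one with unlike calls there. In HIST1H2BK and HIST1H2AH, 331 bases apart, the RKO changes were -0.97 and -1.83, and in HIST1H2BC and HIST1H2AC, 219 bases apart, -1.65 and -1.43.

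**Figure D4:**
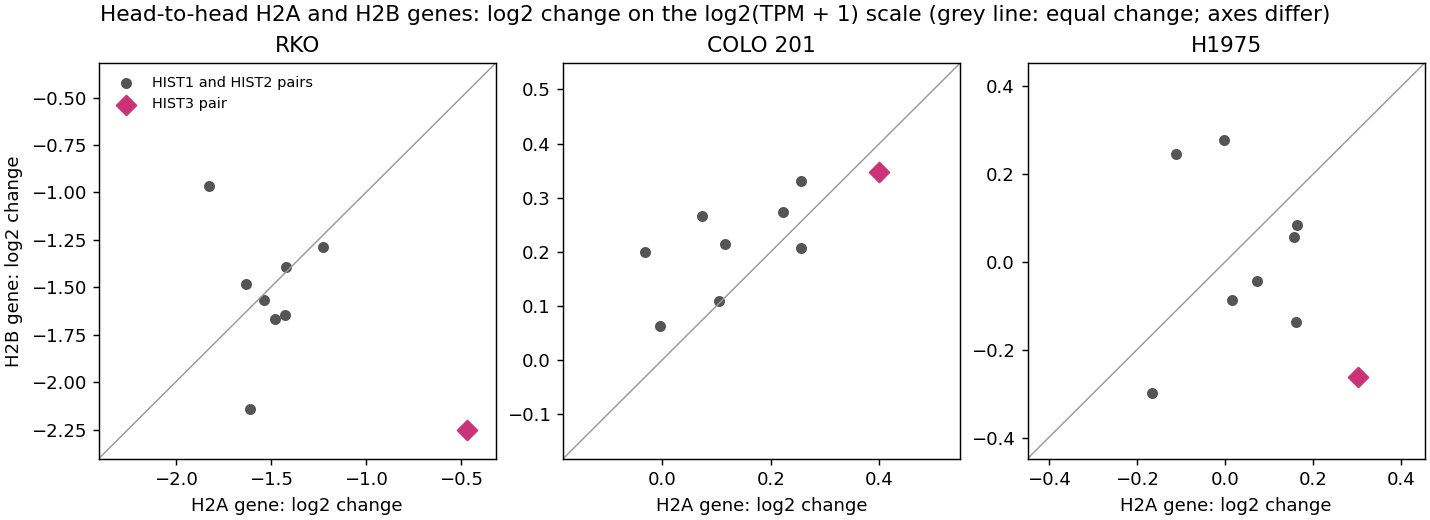
Log2 change of the H2B gene (y axis) against that of the H2A gene (x axis) for head-to-head pairs in each line, on the log2(TPM + 1) scale, with a grey line at equal change and axes that differ between lines. The HIST3 pair (diamond) lies far below the line in RKO, near it in COLO 201 and below it in H1975.

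Across the 54 genes kept in every line, 4 fell in all 3 lines: HIST1H1D, HIST1H2AK, HIST1H2BH and HIST1H3A. Their changes in RKO, COLO 201 and H1975 were -1.60, -0.40 and -0.42 for HIST1H1D and -2.01, -0.22 and -0.45 for HIST1H3A. Another 14 fell in RKO, rose in COLO 201 and did not pass in H1975, and 15 fell in RKO and passed in neither other line. The 15 include HIST1H2AL, whose RKO call rests on vehicle column 1. HIST1H2BK fell in RKO and rose in both others. HIST3H2BB, HIST1H3C, HIST1H3H, HIST1H3J and HIST1H4J fell in RKO, rose in COLO 201 and fell in H1975, though the RKO call of HIST1H3C rests on vehicle column 1. Of the COLO 201 rises named in this paragraph, that of HIST3H2BB was still called after rescaling and the others were lost. Among the 14 genes, HIST1H2BM, HIST1H2BO, HIST1H3G and HIST2H3D kept theirs. Of all genes tested, 16.1% were called lower in RKO and 45.9% higher in COLO 201. In H1975 14.6% were called lower and 23.9% higher. The share of all genes with the same calls in all 3 lines is not given here, so these joint counts cannot be set against it.

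The difference in response between lines was tested in a joint limma fit, in which each pair of comparisons shares a line. The 3 tables were normalized separately, so changes and not levels are compared. The change differed between RKO and COLO 201 in 47 of 54 genes, each more negative in RKO, where 38.1% of all genes differed in either direction (median difference -1.73 against -0.38). It differed between RKO and H1975 in 46 of 54, again each more negative in RKO, where 22.9% of all genes differed (-1.63 against -0.33). Between COLO 201 and H1975 it differed in 27 of 61, where 38.6% of all genes differed, with 24 more positive in COLO 201 (0.22 against 0.05). That count was near the share of all genes. Without RKO vehicle column 1 the counts for RKO against COLO 201 and H1975 were 48 and 48. They are not out of 54, as the 5 genes under 1 TPM in every other RKO column were then not tested. The shares of all genes given above belong to the fit with that column and cannot be set beside these counts.

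Single genes showed the size of these gaps. For HIST1H2AB the change in RKO minus that in COLO 201 was -2.60 ± 0.24 (adjusted p = 3.3e-06), and RKO minus H1975 was -2.36 ± 0.26 (adjusted p = 7.5e-05). For HIST4H4 these differences were -1.89 ± 0.19 and -1.75 ± 0.19. HIST2H4A responded differently in COLO 201 and H1975, by 1.45 ± 0.16 (adjusted p = 2.6e-06), as did HIST3H2BB, by 0.61 ± 0.11 (adjusted p = 0.00043). As 2.46% of the windows of HIST2H4A are unique, its value is uncertain. For HIST3H2A no pair of lines differed at the threshold (adjusted p = 0.087, 0.17 and 0.53). For HIST1H1D the difference between COLO 201 and H1975 was 0.01 ± 0.07.

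Of the genes that serve the histones, some fell in RKO, where 16.1% of all genes were called lower. Of 26 S phase genes 25 fell in RKO and none rose (median -1.27), and the same number fell without vehicle column 1. At an unadjusted p under 0.05 too, no gene of the 4 lists described here rose in RKO. PRIM1, the primase subunit, went from 15.5, 22.1 and 18.7 to 4.70, 6.55 and 5.59 TPM (-1.58), MCM5 of the replicative helicase from 20.4, 27.4 and 24.2 to 5.33, 7.73 and 6.26 TPM (-1.75) and the factor E2F1 from 14.2, 15.2 and 13.3 to 3.49, 4.74 and 4.42 TPM (-1.55). Of 24 histone chaperones and importers 12 fell and none rose (median -0.63), with CHAF1B of the CAF-1 assembly complex at -1.13, MMS22L at -1.29, TONSL at -1.16 and ANP32E, a chaperone of H2A.Z, at -1.33. Of 29 genes for histone transcription and 3′ end processing 10 fell and none rose (median -0.46). NPAT went from 6.55, 6.99 and 5.78 to 2.48, 3.88 and 3.12 TPM (-0.85, adjusted p = 0.0017), its kinase CDK2 from 37.6, 50.1 and 45.01 to 19.4, 26.2 and 21.6 TPM (-0.95), and CASP8AP2 and NELFE changed by -0.80 and -0.90. SLBP, which binds the stem-loop, fell from 23.7, 28.5 and 25.1 to 12.9, 17.8 and 14.7 TPM (-0.74). LSM10 of the U7 snRNP did not pass (-0.27). After rescaling, 24 S phase genes were lower and 1 higher, with 14 and 0 chaperones and 13 and 2 processing genes, and of the 9 variants described next 4 and 0, where 1468 of all 10517 genes were lower and 1453 higher. Without vehicle column 1, 13 chaperones, 12 processing genes and 5 variants were lower. Without it and rescaled, the counts lower and higher were 25 and 1 S phase genes, 17 and 0 chaperones, 16 and 5 processing genes and 6 and 2 variants, where 29.8% and 29.1% of all genes were called.

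Most variant histones are made outside S phase as well, and mostly from polyadenylated messages. In RKO 5 of 9 tested fell and none rose (median -0.70). H2AFZ went from 279, 307 and 276 to 95.6, 154 and 113 TPM (-1.27), H2AFV from 38.9, 32.1 and 27.9 to 10.3, 15.98 and 12.2 TPM (-1.31), and the centromeric CENPA and the macroH2A gene H2AFY changed by -0.92 and -0.77. H3F3B, which encodes the replacement H3, stood at 79.5, 126 and 107 TPM with vehicle and 71.3, 106 and 85.1 TPM with doxycycline and did not pass (-0.25).

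In COLO 201 the calls were mixed: 3 lower and 14 higher of 26 S phase genes, 2 and 7 of 24 chaperones, 4 and 9 of 28 transcription and processing genes and 2 and 7 of 12 variants, with medians of 0.12, 0.02, 0.04 and 0.15, where 15.0% of all genes were called lower and 45.9% higher. Rescaling turned these into 8 and 4, 12 and 2, 13 and 4, and 4 and 3, where 29.7% and 27.3% of all genes were called. Several of these counts are near the share of all genes, and their direction turned on the scaling. Calls with the smallest p were LSM10 (44.9, 44.4 and 47.05 to 69.7, 63.4 and 67.5 TPM, 0.55), H2AFJ (19.3, 19.6 and 19.7 to 34.99, 33.8 and 37.2 TPM, 0.82), LIG1 (0.31), IPO4 (0.33) and H3F3B (-0.35). NPAT fell here too (-0.28). In H1975 no S phase gene fell by limma, also at an unadjusted p under 0.05, and 8 of 26 rose (12 unadjusted), where 14.6% of all genes were called lower and 23.9% higher. The H1975 counts lower and higher were 1 and 4 of 24 chaperones, 0 and 9 of 28 processing genes (2 and 13 unadjusted) and 2 and 3 of 11 variants. Rescaling gave 0 and 7 S phase genes, 2 and 2 chaperones, 2 and 7 processing genes and 4 and 3 variants, where 18.5% of all genes were lower and 21.2% higher. Several of the counts higher are near those shares. PRIM1 rose from 111, 122 and 114 to 149.5, 148 and 161 TPM (0.40), and MIF4GD, which acts with SLBP in translation, rose from 19.2, 18.4 and 20.5 to 27.3, 32.7 and 29.6 TPM (0.60).

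Several of these genes had opposite calls between lines. H2AFZ, CDK2, CPSF2, IPO4, CDC6, FEN1, MCM7 and RRM1 fell in RKO and rose in both others. Of all genes tested, 16.1% were called lower in RKO, and 45.9% higher in COLO 201 and 23.9% in H1975. Many COLO 201 rises in these lists were lost on rescaling, as with S phase genes (14 to 4). Some of the opposite calls may thus turn on the scaling. H1F0, the replacement linker histone, rose in COLO 201 from 349, 351 and 346 to 448, 451 and 436 TPM (0.35) and fell in H1975 from 629, 669 and 657 to 471, 462 and 472 TPM (-0.48). CCNE1, the cyclin partner of CDK2, fell in COLO 201 (-0.35) and rose in H1975 (0.43). ERI1, the exonuclease that trims histone messages, fell in RKO and COLO 201 (-0.72 and -0.27) and rose in H1975 (0.39).

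**Figure D5:**
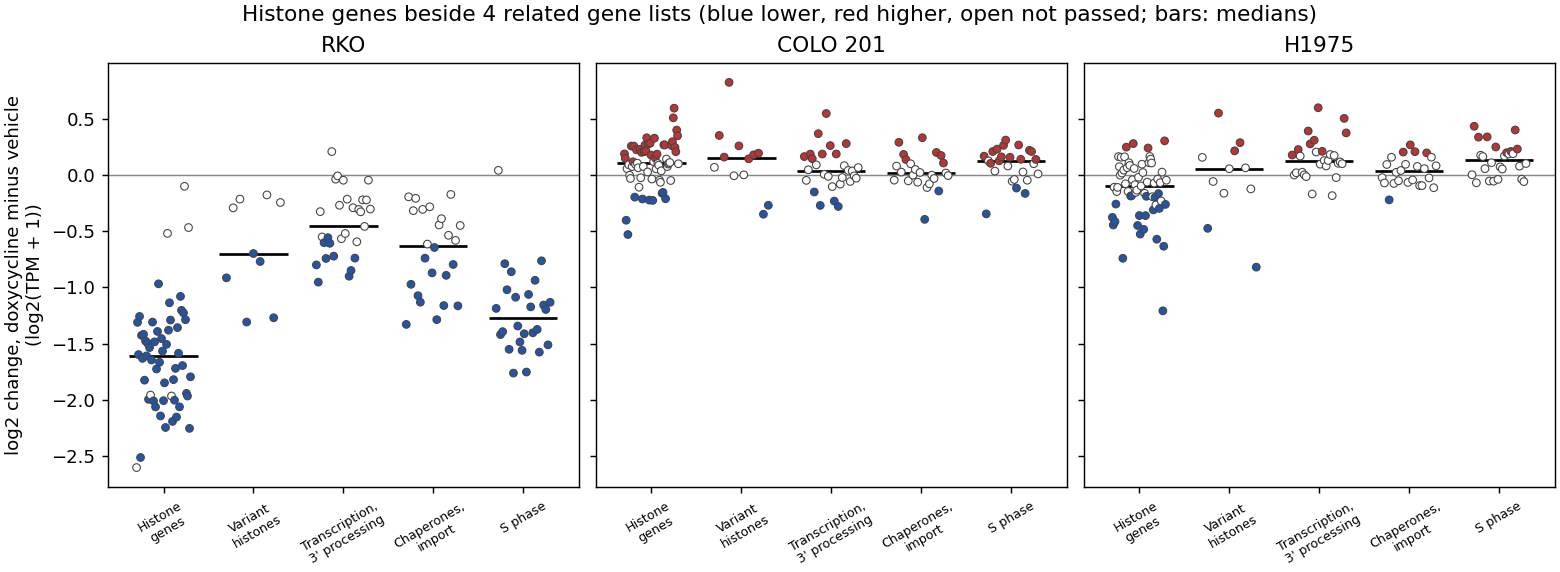
Log2 change (y axis, log2(TPM + 1) scale) of the histone genes and of each gene in 4 related lists (x axis) in the 3 lines, with blue points lower, red higher, open not passed and bars at the medians. In RKO the medians run from -1.61 for the histone genes to -1.27 for S phase genes and -0.46 for transcription and processing genes, and in the other lines all medians lie near 0.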

How the data were processed

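The authors deposited 1 table of TPM per line, normalized separately for each line. STAR, DESeq2 and GRCh38 are named per the submitters' processing notes, with no versions. Per the labels' protocols, RNA from triplicate cultures went into a stranded poly(A) kit. The strand setting, gene annotation and read depth are not given in the sources used here. Columns were matched to arms by their headings (with or without plus after DOX), with 3 per arm and line (18 in all). No deposited value was changed. Genes with a mean of at least 1 TPM per line were compared on log2(TPM + 1) with limma 3.58.1 (R 4.3.3, trend), two-sided, with Benjamini-Hochberg adjustment over all genes tested. Fold changes are on that scale and understate changes of low genes. Sums were compared by exact permutation. The code was tested on simulated data. GENCODE 29 and RefSeq GRCh38.p14 gave positions and sequences. The members and lists were chosen with earlier results of these data known. Named histone genes were, per line, the 2 highest of each type, the 6 largest falls and 4 largest rises with separate arms, and all HIST3 and HIST4 genes. From each list the 4 genes with the smallest adjusted p per line and those with opposite calls qualified. SLBP and other genes outside this rule were named after their values were seen. Alternatives covered pseudocount, minimum TPM, scaling, variance trend, replicate block and left-out columns.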

Additional observations from a re-analysis of the deposited data

Results flagged for a closer look

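The response to doxycycline differed between lines by a limma contrast of the difference itself in 47 of 54 histone genes for RKO against COLO 201, in 46 of 54 for RKO against H1975 and in 27 of 61 for COLO 201 against H1975. Of all genes tested, 38.1%, 22.9% and 38.6% differed between the same pairs of lines. The count for COLO 201 against H1975 was near the share of all genes.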

How the results depend on the processing

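With no minimum TPM, 2 histone genes were lower and 0 higher in RKO, 5 and 19 in COLO 201 and 15 and 5 in H1975. The medians were then -1.55, 0.099 and -0.104 against -1.61, 0.10 and -0.097. That setting tested 18329 genes in RKO and called 28 of them. Of all genes it called 11.2% lower and 34.1% higher in COLO 201, and 11.6% and 14.2% in H1975. Median-ratio rescaling left 7 histone genes higher in COLO 201 and a change of -0.046 in the log2 of their sum, which was 0.019 with mitochondrially encoded genes removed and 0.087 as reported. Without RKO vehicle column 1 and rescaled, 1 histone gene was higher, and HIST3H2A reversed to 0.34. Leaving out each column in turn gave 45 to 53 lower in RKO, 6 to 10 lower and 21 to 33 higher in COLO 201, and 13 to 25 lower and 3 to 7 higher in H1975. The count of 13 was without vehicle column 1 and the count of 7 without doxycycline column 3. Over the same left-out columns, 4.48% to 21.8% of all genes were called lower in RKO. In COLO 201 12.1% to 17% were called lower and 39.2% to 48.6% higher. In H1975 these shares were 10.2% to 16.1% and 13.1% to 26.9%. Correlations of same-numbered columns were 0.292, 0.273 and -0.0124 in RKO, -0.0542, 0.149 and 0.282 in COLO 201 and 0.156, -0.415 and -0.354 in H1975. Those of differently numbered columns reached 0.204, 0.184 and 0.464, so whether the numbers pair the cultures is not known. A replicate block gave 47 lower and 0 higher in RKO, 10 and 32 in COLO 201 and 16 and 4 in H1975. Of all genes it called 19.6% and 3.26%, 17.4% and 49.7%, and 12.4% and 17.9%. Scaling to the total of all other genes, chosen after seeing the data, gave 49 and 0, 8 and 28, and 21 and 4. Of all genes that scaling called 17.2% and 1.99%, 14.3% and 48.2%, and 14.6% and 23.9%. Of 531, 607 and 608 values recomputed in RKO, COLO 201 and H1975, 476, 533 and 550 were classed as the same as the reported value. The rule for counts was loose, and single calls could change under it. In H1975, 14 lower without doxycycline column 1 was classed the same as 21. In COLO 201, 21 higher without vehicle column 1 was classed the same as 28. The cause of the other changes was not tested. TPM hold no depth, so counting error could not be set.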
